A study of Mus musculus with 12 samples.

Results

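STAT3 and the paired factors STAT5A and STAT5B, the SOCS proteins that switch their signalling off, the PIM kinases and the repressor BCL6 were followed in mouse lung group 2 innate lymphoid cells (ILC2s). The set holds 10 genes, taken by gene symbol from the rows of the deposited tables: Stat3, Stat5a, Stat5b, Cish, Socs1, Socs2, Socs3, Pim1, Pim2 and Bcl6. All 10 were listed in both tables, among 18601 genes in the KO and WT table and 21361 genes in the table of sorted fractions, and all 10 passed the filter on low counts in both. They were chosen by symbol and pathway role, with earlier results of these data known, and the rule sets no threshold on a measured value. Their counts against all genes are therefore descriptive.

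Cytokines such as IL-2 and IL-7 bind receptors without enzyme activity of their own, and the Janus kinases (JAKs) held on those receptors phosphorylate STAT proteins, which pair up, enter the nucleus and switch on genes. STAT5 mainly serves the receptors that share the common gamma chain and STAT3 mainly serves IL-6, IL-10 and IL-21 family receptors. Among the genes they switch on are their own brakes, CISH and the SOCS proteins, which block the receptor or the JAK and mark them for degradation, together with the PIM survival kinases. ILC2s are tissue-resident lymphocytes that lack an antigen receptor, make type 2 cytokines and depend on IL-7.

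RNA was sequenced in 12 libraries in 4 groups of 3. Recombinant mouse IL-33 was given through the nose 3 times, at 0.5 µg per mouse, to C57BL/6 mice of 8 weeks, lung ILC2s were sorted, and all cells were then cultured for 24 hours with IL-7 and IL-2, recombinant and at 10 ng per mL each. In the first experiment, LAIR-1-deficient ILC2s (KO; libraries 13, 14 and 15) were set against wild-type ILC2s (WT; libraries 9, 10 and 11). In the second, the LAIR-1- fraction of wild-type ILC2s (libraries 7, 8 and 10) was set against the LAIR-1+ fraction (libraries 1, 2 and 3). LAIR-1 binds collagen and inhibits immune cells. The labels do not say that replicates come from separate animals, so p-values measure the spread between libraries, which may be technical. Every cell in the data had IL-2 and IL-7, which signal through STAT5, so no group shows these genes without that stimulus.

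Counts over the listed genes summed to between 18061470 and 28290487 per library. The library totals by which the authors scaled their values were larger, from 20742485 to 31790886. Lair1 itself was at 0.427, 0 and 3.28 CPM (counts scaled to a common library size) in KO 13, KO 14 and KO 15, against 3.75, 11.1 and 7.66 CPM in WT 9, WT 10 and WT 11. It was at 1.10, 0.577 and 1.95 CPM in LAIR-1- 7, 8 and 10, against 8.71, 12.4 and 12.2 CPM in LAIR-1+ 1, 2 and 3. Its log2 fold change passed between the sorted fractions (-3.14 ± 0.34, SE; adjusted p = 0.000346) and did not pass between KO and WT (-2.59 ± 1.47, SE; adjusted p = 0.715), where KO 15 lay close to WT 9. The 11 ILC2 markers summed to 12476 to 15243 CPM in KO and 10424 to 11052 CPM in WT libraries, without overlap. The largest part was Il5, at 7592 to 9845 CPM in KO and 4400 to 5374 CPM in WT libraries. Il7r, Il13 and Ptprc were also higher in each KO library than in any WT library, while Gata3 and Id2 were lower in each. Between the sorted fractions the sums overlapped, at 8883 to 9479 CPM in LAIR-1- and 9262 to 10142 CPM in LAIR-1+ libraries. Libraries of the sorted fractions resembled each other more closely than those of the KO and WT experiment: their correlations of log2 CPM across genes, which are not independent replicates, lay between 0.981 and 0.991, against 0.907 to 0.964. Of the KO and WT libraries the least alike shared a genotype, WT 9 and WT 10 (0.907), and the most alike did not, KO 14 and WT 11 (0.964). The biological coefficient of variation was 0.135 in the sorted fractions and 0.505 in the KO and WT experiment. The KO and WT comparison thus resolves smaller changes less well.

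The order of the 10 genes was set per kilobase of their longest coding transcript. This compares different genes only roughly, as the transcripts in use were not measured. In KO and WT cells the highest levels were those of Socs1, at 186 and 184 CPM per kb, and Cish, at 174 and 195 CPM per kb. The library values of these 2 genes overlapped in both groups. Stat3 at 60.4 and 59.3, Pim2 at 55.6 and 49.1 and Socs2 at 52.2 and 55.4 CPM per kb formed a second step, again with overlapping libraries in KO cells. Socs3 had 29.5 and 30.0 CPM per kb and Stat5b 20.4 and 14.9. Pim1 had 12.9 and 17.9 CPM per kb, its KO libraries (9.33 to 16.7) overlapped those of Stat5a (9.97 to 14.7), and Bcl6 came last at 0.648 and 0.337. In LAIR-1- and LAIR-1+ cells the order was alike but for Pim1, which came after Socs1 and Cish at 131 and 104 CPM per kb, and Pim2, which came after Socs3 at 35.6 and 19.5 CPM per kb. In LAIR-1- libraries Socs3 (35.8 to 41.8 CPM per kb) and Pim2 (34.8 to 36.5) overlapped. Bcl6 was again last, at 0.182 and 0.395 CPM per kb.

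**Figure D1:**
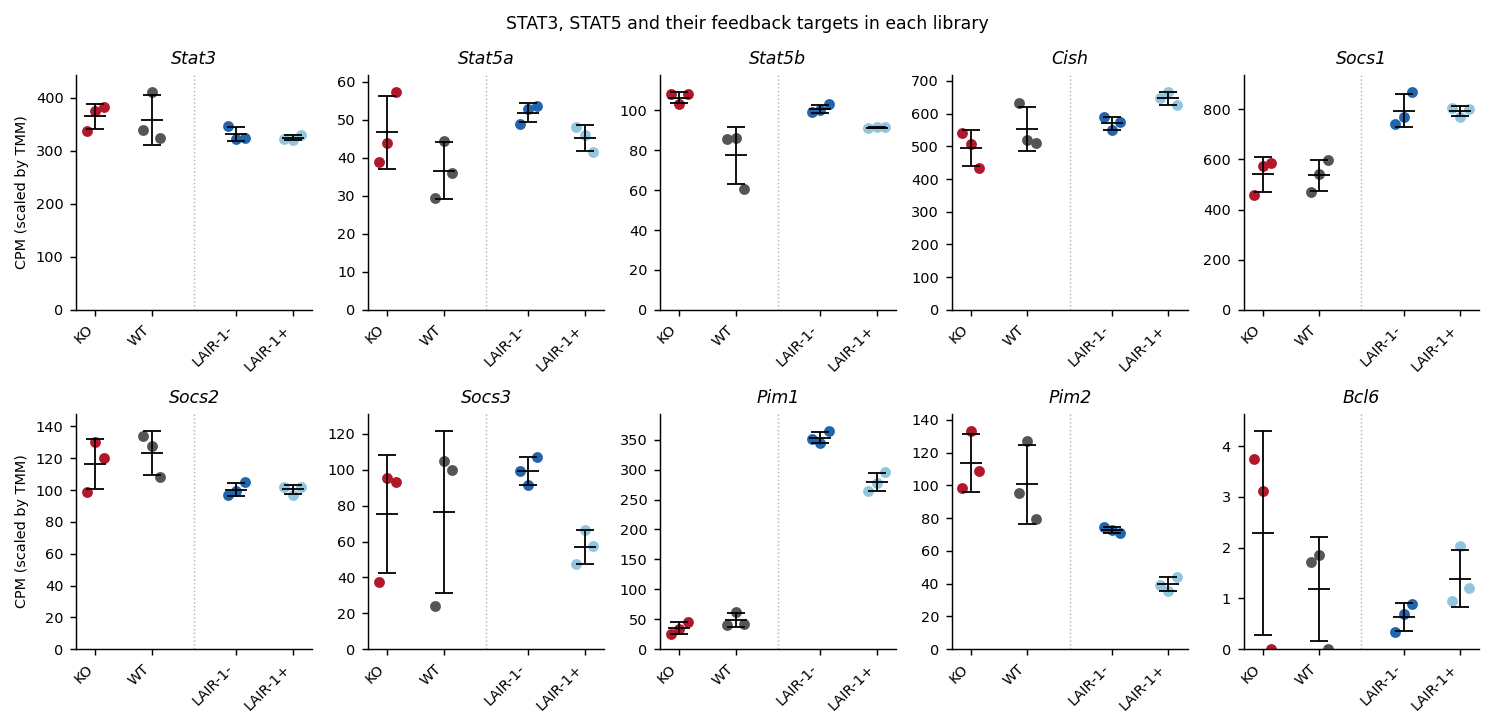
Levels of the 10 genes in each of the 12 libraries, in CPM scaled by TMM on a linear axis from 0; points are libraries, bars the group mean and SD (n = 3), and the dotted line separates the experiments, whose tables were made and scaled separately. Pim1, Pim2 and Socs3 in LAIR-1- libraries lie above every LAIR-1+ library, Stat5b in KO libraries (103 to 108 CPM) lies above every WT library (60.8 to 86.0 CPM), and Socs3 is low in KO 13 and WT 10.

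Between KO and WT ILC2s, none of the 10 genes passed the test, and between the sorted fractions 3 of them rose in LAIR-1- cells: the kinases Pim1 and Pim2 and the inhibitor Socs3. In KO against WT, 0 of 10 genes had an adjusted p under 0.05 with edgeR's quasi-likelihood test, where 0.00706% of the 14164 genes tested did, a single gene. At an unadjusted p under 0.05 the count was 1 of 10, against 8.37% of all genes. DESeq2, limma-voom and limma-trend also called 0 of 10. DESeq2 gave no adjusted p for Bcl6 and called 4.22% of the 7299 genes to which it gave one. The limma methods called 0.0141% (voom) and 0.00706% (trend) of all genes. The count was 1 of 10 for groups that did not overlap, against 16.2% of all genes. In LAIR-1- against LAIR-1+ cells 3 of 10 genes passed, all higher, where 4.01% of the 14261 genes tested passed, 1.30% higher and 2.71% lower. There 5 of 10 genes had an unadjusted p under 0.05, against 15.4%, and 7 of 10 had groups that did not overlap, 5 higher and 2 lower, against 21.0% of all genes, 9.64% higher and 11.3% lower. With the KO and WT libraries added to the same fit 0 of 10 genes passed between the sorted fractions, where 0.357% of all genes did. The median log2 fold change of the 10 genes was 0.019 in KO against WT and 0.085 in LAIR-1- against LAIR-1+ cells, where the medians of all genes tested were 0.0035 and 0.0054.

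**Figure D2:**
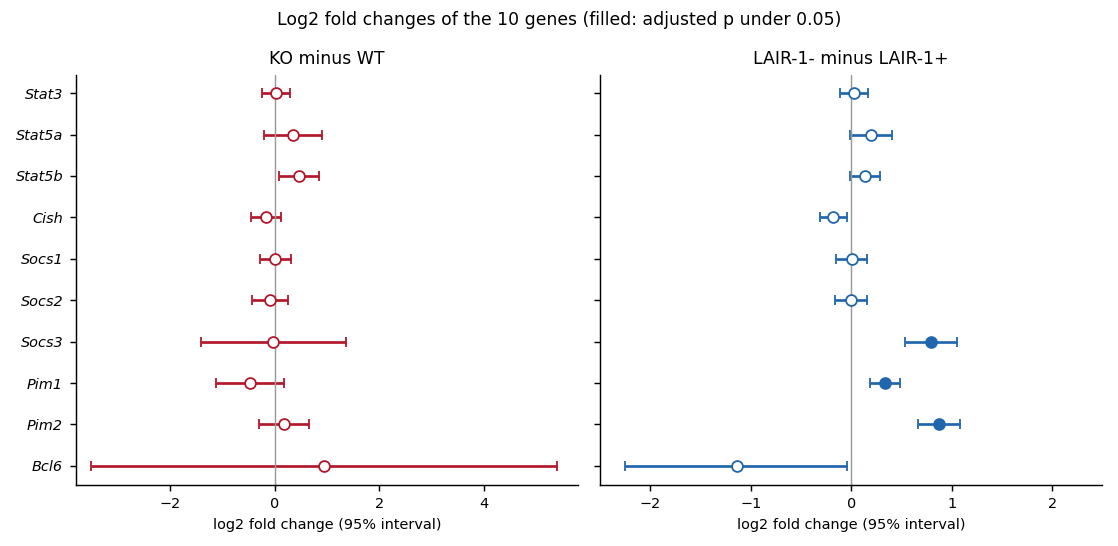
Log2 fold changes of the 10 genes with 95% intervals from edgeR's quasi-likelihood fit, KO minus WT on the left and LAIR-1- minus LAIR-1+ on the right, with different axis ranges; filled points have an adjusted p under 0.05. The filled points are Socs3 (0.79), Pim1 (0.34) and Pim2 (0.87), all in the sorted fractions, and the interval of Bcl6 in KO minus WT, -3.51 to 5.39, is the widest.

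The PIM kinases are constitutively active serine/threonine kinases that promote survival and growth. Pim2, on chromosome X of the mm10 genome (7878262 to 7883432, plus strand), had 72.5, 71.1 and 74.7 CPM in LAIR-1- 7, 8 and 10, against 39.4, 35.8 and 44.3 CPM in LAIR-1+ 1, 2 and 3. The 3 LAIR-1- libraries lay within 4 CPM of each other and far above the highest LAIR-1+ library. The means were 72.8 ± 1.79 and 39.8 ± 4.27 CPM (SD, n = 3 each), a 1.83-fold difference with a log2 fold change of 0.87 ± 0.098 (SE; adjusted p = 0.000447). Pim2 passed with each of the 6 libraries left out in turn.

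Pim1, on chromosome 17 (29490753 to 29496112, plus strand), had 345, 364 and 351 CPM in LAIR-1- 7, 8 and 10, against 265, 277 and 296 CPM in LAIR-1+ 1, 2 and 3. The groups did not overlap here either, and the difference was smaller than that of Pim2. The means were 353 ± 9.65 and 279 ± 15.4 CPM (SD, n = 3 each), and the log2 fold change was 0.34 ± 0.068 (SE; adjusted p = 0.0154). The call was lost without LAIR-1- 7 (adjusted p = 0.0550), without LAIR-1+ 1 (adjusted p = 0.111) and without LAIR-1+ 2 (adjusted p = 0.0647), in a range of 0.0184 to 0.111 over the 6 libraries left out.

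In the KO and WT experiment the kinases had values that overlapped. Pim2 had 98.5, 133 and 109 CPM in KO 13, 14 and 15, against 79.6, 95.1 and 127 CPM in WT 9, 10 and 11, a log2 fold change of 0.18 with a 95% interval from -0.30 to 0.66. Pim1 had 25.2, 34.0 and 45.1 CPM in KO 13, 14 and 15, against 42.6, 40.5 and 61.6 CPM in WT 9, 10 and 11. Its log2 fold change was -0.47, with an interval from -1.13 to 0.18 (adjusted p = 0.723). KO 15 exceeded WT 9 and WT 10, and the other 2 KO libraries lay below every WT library. With a library left out, the log2 fold change of Pim1 ran from -0.71 (without KO 15) to -0.26 (without WT 11) and that of Pim2 from 0.035 (without WT 9) to 0.38 (without WT 11).

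The difference of the comparisons was tested in 1 fit of all 12 libraries, as (KO minus WT) minus (LAIR-1- minus LAIR-1+). It was -0.80 ± 0.28 (SE) on the log2 scale for Pim1 (adjusted p = 0.374 with edgeR) and -0.68 ± 0.24 (SE) for Pim2 (adjusted p = 0.385). None of the 10 genes passed this test after adjustment, where 0.192% of 15125 genes did, and the unadjusted count was 2 of 10, against 9.43% of all genes. DESeq2, which called 1.57% of the 14734 genes to which it gave an adjusted p, and limma-voom, which called 0.165% of all genes, likewise called 0 of 10. Neither kinase is thereby shown to differ between the comparisons.

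The balance of the kinases was also read per kilobase. Pim2 made up 83.8%, 83.8% and 76.2% of the summed Pim1 and Pim2 level in KO 13, 14 and 15, against 71.1%, 75.6% and 73.1% in WT 9, 10 and 11. It made up 21.7%, 20.5% and 21.9% in LAIR-1- 7, 8 and 10, against 16.4%, 14.5% and 16.5% in LAIR-1+ 1, 2 and 3. The Pim2 share was higher in each LAIR-1- library than in any LAIR-1+ library, and in each KO library than in any WT library, where KO 15 and WT 10 lay close. These shares were given no test.

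**Figure D3:**
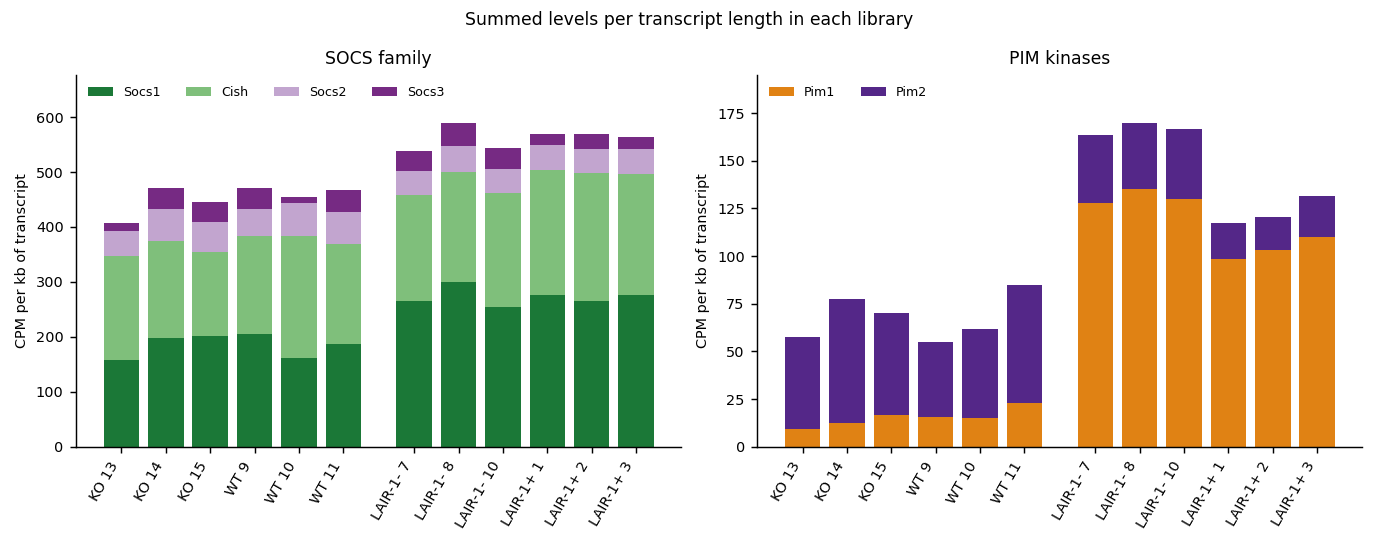
Summed levels of the SOCS family (left) and of the PIM kinases (right) in each of the 12 libraries, stacked by gene, in CPM per kb of the longest coding transcript on a linear axis from 0. Socs1 and Cish make up most of the SOCS sum in every library; Socs3 is thinnest in KO 13 and WT 10 (14.7 and 9.54 CPM per kb), and Pim2 is the larger share of the PIM sum in KO and WT libraries and the smaller one in the sorted fractions.

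SOCS3 binds phosphorylated gp130-type receptors and inhibits the attached JAK, and its gene is a classical STAT3 target. Socs3, on chromosome 11 (117966079 to 117970047, minus strand), had 91.4, 107 and 99.3 CPM in LAIR-1- 7, 8 and 10, against 47.5, 66.3 and 57.4 CPM in LAIR-1+ 1, 2 and 3. Every LAIR-1- library lay above every LAIR-1+ library. The means were 99.1 ± 7.59 and 57.1 ± 9.37 CPM (SD, n = 3 each), 1.73-fold, with a log2 fold change of 0.79 ± 0.12 (SE; adjusted p = 0.00231). Socs3 passed with each of the 6 libraries left out.

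In the KO and WT experiment Socs3 split the libraries without regard to genotype. It had 37.5, 95.4 and 93.0 CPM in KO 13, 14 and 15, against 99.7, 24.3 and 105 CPM in WT 9, 10 and 11. One library of each genotype was thus low, and the other 4 lay between 93.0 and 105 CPM. The log2 fold change of -0.023 had a 95% interval from -1.41 to 1.36. With a library left out it ran from -0.45 (without WT 10) to 0.30 (without KO 13), and it was above 0 also without WT 9 (0.21) and without WT 11 (0.28). The difference of the comparisons was -0.81 ± 0.63 for Socs3 (SE; adjusted p = 0.790).

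CISH, the first described member of the family, blocks STAT5 docking at receptor tails and is a classical STAT5 target. Cish, on chromosome 9 (107296026 to 107302784, plus strand), had 550, 573 and 590 CPM in LAIR-1- 7, 8 and 10, against 647, 666 and 627 CPM in LAIR-1+ 1, 2 and 3. The groups did not overlap, with LAIR-1- cells lower, and the log2 fold change of -0.18 ± 0.062 (SE) did not pass (adjusted p = 0.173). Cish had 541, 508 and 435 CPM in KO 13, 14 and 15, against 511, 632 and 520 CPM in WT 9, 10 and 11, a log2 fold change of -0.16 with an interval from -0.45 to 0.12. Within each genotype the library lowest in Socs3, KO 13 or WT 10, was the highest in Cish. Cish accounted for 46.6% and 48.9% of the summed SOCS level per kilobase in KO 13 and WT 10, and for 34.3% to 39.1% in the other 4 libraries. These libraries were singled out after their values were seen.

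SOCS1, which inhibits JAK1, JAK2 and TYK2 directly, and SOCS2, best known for restraining growth hormone signalling, showed no difference that passed. Socs1 (chromosome 16, 10782240 to 10785536, minus strand) had 794 ± 66.2 CPM in LAIR-1- and 793 ± 19.8 CPM in LAIR-1+ cells, and 540 ± 69.8 CPM in KO and 536 ± 63.0 CPM in WT cells (SD, n = 3 each). Its 95% interval ran from -0.15 to 0.16 on the log2 scale between the sorted fractions and from -0.29 to 0.31 between KO and WT. Socs2 (chromosome 10, 95385362 to 95417180, minus strand) ranged from 96.9 to 105 CPM in LAIR-1- and from 97.2 to 102 CPM in LAIR-1+ libraries, with an interval from -0.16 to 0.16. It had 98.9, 130 and 120 CPM in KO 13, 14 and 15, against 108, 134 and 128 CPM in WT 9, 10 and 11, with an interval from -0.43 to 0.26.

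The sequences around the starts of Socs3, Pim1 and Pim2, the genes that rose in LAIR-1- cells, and of Cish, which did not, are shown from 250 bases before to 30 bases from the annotated start, read on the gene's strand from RefSeq on GRCm38.p6. Capitals mark matches to TTCNNNGAA, the core to which STAT pairs bind; the motif is its own reverse complement, so that 1 search covers both strands.
Socs3 (chr11:117969337-117969616, minus strand): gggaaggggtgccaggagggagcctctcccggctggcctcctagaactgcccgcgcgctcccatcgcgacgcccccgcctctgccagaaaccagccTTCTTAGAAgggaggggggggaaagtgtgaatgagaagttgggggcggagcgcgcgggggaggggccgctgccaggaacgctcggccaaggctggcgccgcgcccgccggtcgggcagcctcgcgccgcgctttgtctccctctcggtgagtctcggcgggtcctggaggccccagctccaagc
Cish (chr9:107296409-107296688, plus strand): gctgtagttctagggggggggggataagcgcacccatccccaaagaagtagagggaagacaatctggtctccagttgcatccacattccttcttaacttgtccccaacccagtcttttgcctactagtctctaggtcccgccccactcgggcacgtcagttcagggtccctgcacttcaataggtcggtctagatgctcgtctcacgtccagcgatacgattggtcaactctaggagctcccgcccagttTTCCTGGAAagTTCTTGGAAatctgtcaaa
Pim1 (chr17:29490535-29490814, plus strand): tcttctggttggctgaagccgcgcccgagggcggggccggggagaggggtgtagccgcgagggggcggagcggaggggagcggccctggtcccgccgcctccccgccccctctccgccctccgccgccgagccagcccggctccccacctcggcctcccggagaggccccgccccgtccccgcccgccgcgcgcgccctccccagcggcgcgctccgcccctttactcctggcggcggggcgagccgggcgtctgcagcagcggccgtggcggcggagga
Pim2 (chrX:7878056-7878335, plus strand): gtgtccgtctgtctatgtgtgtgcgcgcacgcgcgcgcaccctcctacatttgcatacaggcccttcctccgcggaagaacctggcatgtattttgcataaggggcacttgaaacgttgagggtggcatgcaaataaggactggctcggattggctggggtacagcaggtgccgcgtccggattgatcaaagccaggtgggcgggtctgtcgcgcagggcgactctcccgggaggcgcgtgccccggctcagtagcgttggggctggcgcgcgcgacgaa

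Socs3 holds 1 match, TTCTTAGAA, at -154 to -146 from the start, and Cish holds 2, TTCCTGGAA at 1 to 9 and TTCTTGGAA at 12 to 20. These positions count from the RefSeq starts. For Socs3 and Cish those starts, and the whole windows, lie inside the gene spans given above, which begin further upstream. The windows of Pim1 (2, of which 1 is shown) and Pim2 hold none. Over 32851 annotated mouse windows of 300 bases, 8.30% hold at least 1 match and 0.457% hold 2 or more. RefSeq windows were matched for 9 of the 10 genes, all but Socs2; Bcl6 has 1 match in 1 of its windows and 3 in the other, and the windows of Socs1, Stat3, Stat5a and Stat5b have none. The wider spacing TTCNNNNGAA, in 6.95% of windows, was found in none of the 9 genes. A match is a run of letters and was not measured as a binding site.

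Stat3 (chromosome 11, 100885098 to 100939540, minus strand) had 332 ± 13.7 CPM in LAIR-1- and 325 ± 4.38 CPM in LAIR-1+ cells, and 365 ± 24.0 CPM in KO and 358 ± 46.2 CPM in WT cells (SD, n = 3 each). Its 95% intervals were -0.11 to 0.17 and -0.24 to 0.29 on the log2 scale.

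Stat5b, the more abundant STAT5 gene here (chromosome 11, 100780731 to 100850724, minus strand), was the 1 gene of the 10 whose KO and WT libraries did not overlap. It had 108, 103 and 108 CPM in KO 13, 14 and 15, against 60.8, 85.6 and 86.0 CPM in WT 9, 10 and 11. The log2 fold change was 0.46 ± 0.16 (SE) with a 95% interval from 0.078 to 0.84, and it did not pass over all genes (adjusted p = 0.505). The adjusted p lay between 0.0837 and 0.631 over the other settings that kept all libraries, and without WT 9 the log2 fold change was 0.31. Between the sorted fractions Stat5b had 100, 103 and 99.1 CPM in LAIR-1- 7, 8 and 10, against 91.0, 91.5 and 91.6 CPM in LAIR-1+ 1, 2 and 3. The groups did not overlap, and the difference of 0.14 ± 0.071 (SE) did not pass (adjusted p = 0.382).

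Stat5a (chromosome 11, 100859351 to 100885169, plus strand) had higher means in LAIR-1- than in LAIR-1+ cells and in KO than in WT cells, without passing in either comparison. It had 52.9, 53.7 and 49.0 CPM in LAIR-1- 7, 8 and 10, against 48.2, 46.1 and 41.5 CPM in LAIR-1+ 1, 2 and 3 (log2 fold change 0.20 ± 0.096, SE; adjusted p = 0.367). It had 38.8, 43.9 and 57.3 CPM in KO 13, 14 and 15, against 36.0, 29.4 and 44.4 CPM in WT 9, 10 and 11 (0.35 ± 0.23, SE; adjusted p = 0.768). With a library left out this ran from 0.18 (without KO 15) to 0.51 (without WT 11), with 0.21 without WT 10. Stat5b made up between 55.8% and 68.5% of the STAT5 level per kilobase over the 12 libraries, most in WT 10 (68.5%) and KO 13 (67.5%). Stat5a and Stat5b are neighbours with close sequence: 608 of 7407 windows of 50 exonic bases in Stat5a (8.21%) also occur in Stat5b, and reads there could have been split between them. Stat3 and Stat5a also overlap by 72 bases at their ends on opposite strands.

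BCL6 is a repressor that competes with STAT5 for some sites and is opposed by BLIMP-1, the product of Prdm1. Bcl6 (chromosome 16, 23965052 to 23988852, minus strand) was close to the limit of detection in all groups. It had 13, 17 and 10 counts in LAIR-1- 7, 8 and 10, against 20, 51 and 31 counts in LAIR-1+ 1, 2 and 3, that is 0.641 ± 0.275 and 1.39 ± 0.565 CPM (SD, n = 3 each). The groups did not overlap, and the log2 fold change of -1.14 ± 0.51 (SE) did not pass (adjusted p = 0.303). It had 79, 61 and 0 counts in KO 13, 14 and 15, against 0, 31 and 37 counts in WT 9, 10 and 11, and a log2 fold change of 0.94 with an interval from -3.51 to 5.39.

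Around the 10 genes, 110 further genes of the pathway were read in lists by role, also chosen with earlier results of these data known. Their counts against all genes are no test of enrichment. Of the 92 tested between KO and WT, 0 passed with edgeR, where 0.00706% of all genes did, and 17 had an unadjusted p under 0.05, against 8.37% of all genes, with a median log2 fold change of 0.045. Of the 94 tested between the sorted fractions, 12 rose and 7 fell in LAIR-1- cells, where 1.30% of all genes tested rose and 2.71% fell, with a median of -0.060. Of the 4 JAK genes, 4 other SOCS genes, 4 subunits of the SOCS-box ubiquitin ligase and 6 PIM substrates tested, 0 passed in either comparison. Jak1, the kinase on the common gamma chain's partner chains, had 493 ± 52.4 CPM in LAIR-1- and 604 ± 31.5 CPM in LAIR-1+ cells (SD, n = 3 each; log2 fold change -0.29 ± 0.082, SE; adjusted p = 0.0773).

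Among other STAT3 and STAT5 targets, 8 of 23 tested rose in LAIR-1- cells and 2 fell, against 1.30% and 2.71% of all genes, with a list median of -0.026. How far the choice of the list shaped these counts was not tested. Nfil3, a transcription factor needed early in innate lymphoid development, averaged 79.6 ± 2.00 CPM in LAIR-1- and 48.5 ± 1.83 CPM in LAIR-1+ cells (SD, n = 3 each), a log2 fold change of 0.72 ± 0.082 (SE; adjusted p = 0.000473). Bcl3, a nuclear IkB protein, had a log2 fold change of 0.62, Zfp36, an RNA-decay factor, 0.70, Gadd45g, a stress-response gene, 0.60, and Cdk6, a cell-cycle kinase, 0.49; these passed in all 6 left-out fits, as Nfil3 did. The AP-1 factor gene Batf (0.53) and Maf (0.47) lost their call without LAIR-1+ 2, and Gzmb, which encodes granzyme B and was 2.82-fold higher, without LAIR-1+ 1. Myc fell by 0.37 and Fgl2 by 0.43 on the log2 scale; Myc lost its call in 4 left-out fits (adjusted p up to 0.113) and Fgl2 in 2 (up to 0.138).

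The cytokine and receptor genes split. Il10, which signals through STAT3, had 18.7 ± 5.69 CPM in LAIR-1- and 1.39 ± 0.311 CPM in LAIR-1+ cells (SD, n = 3 each; log2 fold change 3.73 ± 0.26, SE; adjusted p = 2.80e-05). Il22 rose by 1.37 from low levels and lost its call in 4 of 6 left-out fits. Neither gene was tested between KO and WT, where Il10 was not listed and Il22 did not pass the filter on low counts. Csf2, encoding GM-CSF, had 325 ± 12.2 CPM in LAIR-1- and 657 ± 76.2 CPM in LAIR-1+ cells (SD, n = 3 each; -1.02 ± 0.086, SE; adjusted p = 8.00e-05), and its receptor chain Csf2rb fell by 1.06 on the log2 scale; Il10, Csf2 and Csf2rb passed in all 6 left-out fits. Il2ra, the high-affinity chain of the IL-2 receptor, averaged 1831 ± 39.5 CPM in LAIR-1- and 1361 ± 197 CPM in LAIR-1+ cells (SD, n = 3 each; 0.43 ± 0.089, SE; adjusted p = 0.0187), with the call lost in 4 of 6 left-out fits. Il12rb1 fell by 0.42 and lost its call without LAIR-1+ 1. The signalling chains Il2rb, Il2rg and Il7r had log2 fold changes of -0.020, -0.14 and -0.088 and did not pass.

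Sh2b3, encoding the adaptor LNK that restrains JAK2, was the 1 of 10 other brakes that passed. It averaged 32.4 ± 2.94 CPM in LAIR-1- and 65.1 ± 2.47 CPM in LAIR-1+ cells (SD, n = 3 each), a log2 fold change of -1.01 ± 0.098 (SE; adjusted p = 0.000188), and passed in all 6 left-out fits. Stat2 fell by 0.53 (adjusted p = 0.0347) and lost its call in 5 of 6 left-out fits. Prdm1, of the BCL6 circuit, rose by 0.52 (adjusted p = 0.0386) and lost its call in 4 of 6.

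**Figure D4:**
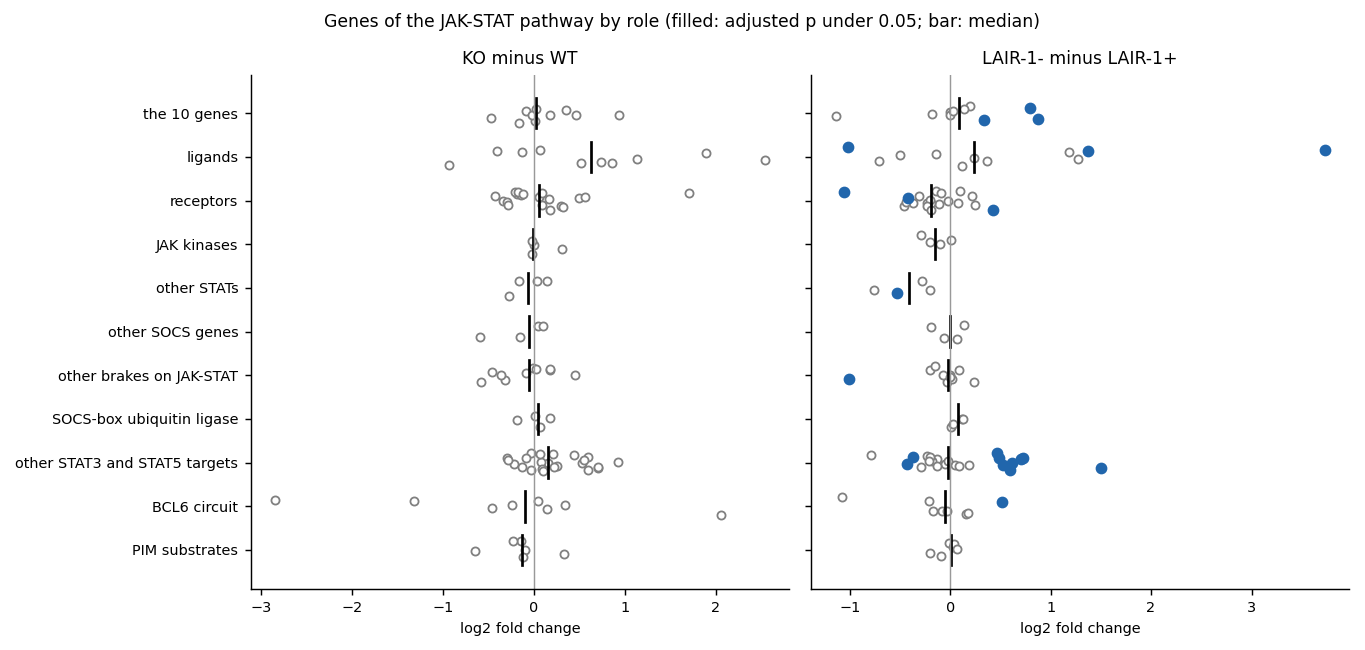
Log2 fold changes of the genes tested, by role in the JAK-STAT pathway, KO minus WT on the left and LAIR-1- minus LAIR-1+ on the right; each point is a gene, filled where its adjusted p is under 0.05, the black bar is the list median, points are spread vertically only to separate them and the axis ranges differ. No point is filled for KO minus WT; for the sorted fractions the filled points lie among the 10 genes, ligands, receptors, other targets and single genes of the STATs, brakes and BCL6 circuit.

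Genes with the most similar profile to each gene that passed were sought over the 12 libraries, as the smallest root mean square difference of log2 CPM centred within each experiment, among 9516 genes. For Pim2 they were Wwp1, a ubiquitin ligase gene, and Batf (0.17 log2 units each), which rose in LAIR-1- cells by 0.63 and 0.53. Both were picked for likeness to Pim2 in these same libraries, so a shared rise follows in part from the choice. For Pim1 they were Tpst1 (0.14) and Senp3 (0.16), and for Socs3 they were Gpr137 (0.29) and Tatdn1 (0.33). These 4 genes did not pass in either comparison.

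Sums of markers of other cells did not overlap between the sorted fractions for several lists. The 7 mast cell and basophil markers, all listed, summed to 76.6 to 115 CPM in LAIR-1- and 255 to 306 CPM in LAIR-1+ libraries. Most of that sum was Tpsab1, at 43.0 to 68.9 CPM in LAIR-1- and 211 to 215 CPM in LAIR-1+ libraries. Cpa3 and Mcpt4 were also lower in LAIR-1- libraries, while Fcer1a, Ms4a2 and Tpsb2 overlapped. Mcpt8 overlapped too, with its higher values in LAIR-1- libraries (3.52 to 6.62 CPM, against 1.80 to 3.57 CPM in LAIR-1+). The 8 myeloid markers, all listed, summed to 6.30 to 10.8 CPM in LAIR-1- libraries, where Siglecf was at 0, and 29.5 to 42.1 CPM in LAIR-1+ libraries. The 6 epithelial markers summed to 25.4 to 33.3 CPM in LAIR-1- libraries, where Scgb1a1 and Krt8 were at 0, and 34.9 to 113 CPM in LAIR-1+ libraries, while Epcam, most of the LAIR-1- sum, had 24.0 to 31.6 CPM in LAIR-1- and 18.8 to 20.7 CPM in LAIR-1+ libraries. Markers of T cells, 6 of 8 listed, summed to 65.2 to 83.8 CPM in LAIR-1- libraries, with Cd4 at 0, and 54.4 to 66.7 CPM in LAIR-1+ libraries. Most of this was Cd3g, at 54.5 to 67.8 CPM in LAIR-1- and 41.1 to 53.9 CPM in LAIR-1+ libraries. Cd3e overlapped between the fractions, and Cd3d, Cd8b1 and Trac had at most 1.40 CPM in any of these libraries. Of the endothelial and stromal markers, 3 of 6 listed, Pecam1 had 38.5 to 40.6 CPM in LAIR-1- and 23.4 to 26.1 CPM in LAIR-1+ libraries, and Col1a1 and Pdgfra had at most 0.437 CPM in any of them. Sums of B cell markers (4 of 6 listed) were 15.8 to 19.7 CPM in LAIR-1- libraries and lower, from 8.57 CPM, in each LAIR-1+ library. Most of this was Cd79b, at 11.4 to 14.1 CPM in LAIR-1- and 6.91 to 10.1 CPM in LAIR-1+ libraries. Fcmr overlapped, and Cd79a and Ms4a1 had at most 0.398 CPM. Those of NK cells and ILC1s (4 of 6) were 1.21 to 3.26 CPM in LAIR-1- and 3.86 to 7.10 CPM in LAIR-1+ libraries, and those of ILC3s (2 of 5, with Il22 among them) 4.68 to 7.66 CPM in LAIR-1- and 2.56 to 4.05 CPM in LAIR-1+ libraries. Between KO and WT libraries the epithelial sums did not overlap, from 17.9 CPM in KO and 49.1 to 131 CPM in WT libraries, with Epcam at 16.9 to 25.4 CPM in KO and 49.1 to 55.9 CPM in WT libraries. Pecam1, the 1 endothelial marker listed there, had 24.5 to 44.4 CPM in KO and 18.9 to 22.6 CPM in WT libraries. Whether these transcripts came from other cells was not tested, nor was the part of any such cells in the differences of Pim1, Pim2, Socs3, Stat5b and the pathway genes. In sorted bulk cells more cells with a transcript and more transcript per cell cannot be told apart.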

How the data were processed

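RNA sequencing of 12 libraries was analysed from the deposited tables. The authors deposited estimated counts per gene for each experiment, and the same genes as CPM, each value being a count scaled by its library total with 0.0001 added. STAR 2.5.3a, Partek and bcl2fastq 2.17.1.14 were used with mm10, per the submitters' processing notes; the counting tool, its use of strand and its annotation are not stated in the sources used here. With a tolerance of 0.001, 47.9% of the KO and WT estimates and 44.4% of those of the sorted fractions were not whole numbers. Of the 10 genes, Cish and Pim1 are overlapped by antisense genes listed with at most 98 and 131 counts in a library.

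Groups came from the labels. Counts were rounded, and each experiment was tested from its own 6 libraries with edgeR 4.0.16 in R 4.3.3 (filterByExpr, TMM, quasi-likelihood F test), and p-values were adjusted by Benjamini and Hochberg's method across every gene tested (threshold 0.05). CPM in the text are scaled by TMM. Standard errors come from the F statistic and 95% intervals from its degrees of freedom. The difference of the comparisons was tested in 1 fit of 4 group means over the 12 libraries. Tests were tried on simulated counts. Alternatives were other size factors and filters, DESeq2 1.42.0, limma 3.58.1 (voom weighted by library quality, and limma-trend on log2 of the deposited CPM plus 1), all 12 libraries in 1 fit, and leaving out each library.

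The genes and lists were chosen with earlier results of these data known. The text names all 10 genes, the listed pathway genes that passed, receptor, JAK and STAT genes as counterparts, and for each gene that passed the 2 most similar in profile (mean of at least 5 CPM; prior count 0.5). Positions come from the deposited tables and transcript lengths from GENCODE M21.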

Additional observations from a re-analysis of the deposited data

Results flagged for a closer look

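Of the 19 ligand genes listed for the pathway, Il3, Il7, Il10, Il11, Il21, Il27, Csf3 and Tslp were not tested for the difference between the comparisons. Among the others this test passed for Csf2 and Il5, where 0.192% of all genes tested passed. For Csf2, which encodes GM-CSF, (KO minus WT) minus (LAIR-1- minus LAIR-1+) was 1.76 ± 0.14 on the log2 scale (SE; adjusted p = 0.000412 with edgeR over 15125 genes). Csf2 averaged 1130 ± 68.7 CPM in KO and 678 ± 76.3 CPM in WT cells, and 325 ± 12.2 CPM in LAIR-1- and 657 ± 76.2 CPM in LAIR-1+ cells (SD, n = 3 each). For Il5, an ILC2 effector cytokine, the difference was 1.01 ± 0.16 (SE; adjusted p = 0.0274). Il5 averaged 9065 ± 1276 CPM in KO and 5007 ± 529 CPM in WT cells, and 3662 ± 169 CPM in LAIR-1- and 4034 ± 367 CPM in LAIR-1+ cells (SD, n = 3 each). Neither passed in KO against WT alone, with adjusted p of 0.163 and 0.176. Whether their calls for the difference hold with a library left out was not examined, and there 3 to 236 genes in all were called.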

How the results depend on the processing

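No paired analysis was possible because the libraries compared share no replicate number in the labels. None of the 10 genes was called in KO against WT and in the difference of the comparisons under every alternative run. In LAIR-1- against LAIR-1+ cells 3 were called as reported and under each alternative that used all 6 libraries alone; with all 12 libraries in 1 fit 0 were called, where log2 fold changes were unchanged for Pim2 (0.87), Socs3 (0.79) and Pim1 (0.34) with adjusted p of 0.0661, 1.00 and 1.00, and with libraries left out 2 to 3. That fit shares 1 estimate of spread with the KO and WT libraries. Adjusted p ranged from 1.26e-13 to 0.0661 for Pim2, 8.35e-09 to 1.00 for Socs3 and 0.000249 to 1.00 for Pim1 over the alternatives that kept all libraries. Over the left-out libraries the log2 fold change of Pim1 ran from 0.30 to 0.38.

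Counts over all genes moved more. In KO against WT 1 gene was called as reported, 5 with a filter at a mean of 5 CPM, 55 with one at 50 CPM, 308 by DESeq2, 2 by limma-voom, 267 with all 12 libraries in 1 fit and 0 without any 1 of the 6 libraries. In the sorted fractions 572 were called, 856 by DESeq2, 671 by limma-voom, 250 with a filter at a mean of 50 CPM, 54 with all 12 libraries in 1 fit and 333 to 516 with a library left out. For the difference 29 were called, 52 with a filter at a mean of 50 CPM, 232 by DESeq2 and 3 to 236 with a library left out, the highest without WT 11. The cause was not tested.

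Signs turned only for genes that did not pass. In KO against WT, limma-voom gave -0.037 for Stat3 and -0.61 for Bcl6, and limma-trend gave 0.11 for Socs3. With a library left out, Socs1 ran from -0.075 to 0.11, Socs2 from -0.17 to 0.015, Socs3 from -0.45 to 0.30 and Stat3 from -0.039 to 0.14. In the sorted fractions Socs2 was 0.0014 with median-of-ratios size factors, 0.026 with library totals, 0.0042 and 0.00038 at means of at least 5 and 50 CPM, 0.0012 with DESeq2 and 0.017 with limma-trend, and Socs1 was -0.024 with limma-voom. With a library left out Socs1 ran from -0.069 to 0.048, Socs2 from -0.038 to 0.024 and Stat3 from -0.0059 to 0.054. For the difference, Stat3 was -0.0027 with median-of-ratios size factors, -0.032 with library totals, -0.011 and -0.029 at means of at least 5 and 50 CPM, -0.0029 with DESeq2 and -0.076 with limma-voom. Socs1 was -0.021 with library totals and -0.0018 and -0.021 at means of at least 5 and 50 CPM, and Cish was -0.013 with library totals and -0.011 at a mean of at least 50 CPM. With a library left out the difference ran from -0.065 to 0.13 for Socs1, -0.17 to 0.031 for Socs2, -0.042 to 0.13 for Cish, -0.069 to 0.12 for Stat3 and -0.023 to 0.34 for Stat5a. Depth limits Bcl6 most, with 0 to 79 counts in a library.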

Other observations

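With all 12 libraries on 1 scale, Pim1 averaged 332 CPM over the 6 libraries of the sorted fractions (279 to 383) and 40.2 CPM over the 6 KO and WT libraries (24.2 to 60.1), an 8.17-fold difference that 0.555% of 15125 genes exceeded in that direction. Pim2 averaged 59.2 CPM in the sorted fractions and 104 CPM in the KO and WT libraries, a ratio of 0.572. The other 8 genes had ratios between 0.720 and 1.60, with Socs1 the highest of them (834 and 521 CPM; 779 to 913 in the sorted fractions and 442 to 576 in the KO and WT libraries) and Stat3 at 0.984. The experiments were tabulated separately, and Xist, a transcript of female cells, lay between 0 and 0.368 CPM in the sorted fractions and between 57.6 and 91.6 CPM in the KO and WT libraries. Sorting, sex, table and sequencing cannot be told apart between the experiments, and no test was made. Mitochondrial transcripts made up 0.416% of WT 11 and 0.736% to 0.822% of the other KO and WT libraries.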
